A study of Mus musculus with 23 samples.

Results

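The 37 genes described here encode proteins of fatty acid uptake and oxidation, together with thioesterases and regulators. They were taken from the deposited gene table by symbol, all 37 of the 37 listed symbols were among its 28861 genes, none occurred more than once, and all 37 passed the filter on low counts that left 22873 genes for testing. RNA was sequenced from the testes of wild-type male mice of 3 inbred strains: C57BL/6J, from which the mouse reference genome was built; CAST/EiJ, a wild-derived strain; and NZO/HlLtJ, a strain prone to obesity and diabetes. From 6 to 16 weeks of age the mice were fed a control diet of 10% fat or a high-fat, high-sugar diet of 44% fat, and the labels list fiber in both. There were 4 libraries of C57BL/6J on each diet, 3 of CAST/EiJ on 10% fat and 4 on 44% fat, and 4 of NZO/HlLtJ on each diet, 23 in all. The comparisons address whether strain, diet or both together set the level of these genes. The labels give each library as its own testis sample but do not name the animals, so p-values measure the spread between these samples.

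A fatty acid enters a cell with the help of the membrane receptor encoded by Cd36 and the transporters encoded by Slc27a1 and Slc27a4, and is bound in the cytoplasm by small proteins such as that of Fabp3. Acyl-CoA synthetases (Acsl genes) activate it, and the carnitine shuttle (Cpt1, Slc25a20 and Cpt2 products) moves it into the mitochondrial matrix. There each turn of beta-oxidation runs through a dehydrogenase, a hydratase, a second dehydrogenase and a thiolase, and the electrons leave through the electron transfer flavoprotein. In the testis, Sertoli cells are known to oxidise fatty acids, including those from germ cell remnants that they engulf. Leydig cells use lipids for steroid synthesis, and developing germ cells carry several isozymes of their own.

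Library totals ran from 21918905 to 78691070 estimated counts, with a median of 35135534. Values below are CPM (estimated counts scaled to a common library total with TMM factors), given as mean ± SD over libraries (n = 8 for C57BL/6J, 7 for CAST/EiJ and 8 for NZO/HlLtJ, both diets together). Each log2 difference is given ± its standard error (SE) from a quasi-likelihood fit of edgeR over all 23 libraries, and "called" means a Benjamini-Hochberg adjusted p under 0.05 over all genes tested. Summed markers of elongating spermatids lay between 8189 and 12118 CPM in every library, and no testis marker used here was at 0 in all libraries of a group. 5 libraries stood apart from their groups in summed cell type markers: C57BL/6J 10% fat replicates 2 and 4, CAST/EiJ 44% fat replicate 2, NZO/HlLtJ 10% fat replicate 4 and NZO/HlLtJ 44% fat replicate 3. Replicate numbers only name libraries. Results that rest on these 5 are given with and without them, a choice made after the data were seen.

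Per length of exon, the carnitine acetyltransferase gene Crat stood highest of the 37 in C57BL/6J, at 131 ± 5.4 CPM per kb, followed by Fabp3 at 97 ± 8.7 and Acsl1 at 82.8 ± 3.2. Crat converts acetyl-CoA and carnitine to acetylcarnitine. Cpt1b, the carnitine palmitoyltransferase of muscle and germ cells, came next at 75.3 ± 0.85 CPM per kb, and Hadha, the alpha subunit of the trifunctional protein, followed at 37 ± 1.8. At the other end lay Acot1 at 0.205 ± 0.08, Ppard at 0.383 ± 0.052 and Acot2 at 0.495 ± 0.13 CPM per kb. Levels thus spanned more than 2 orders of magnitude, and the lowest estimated counts behind any member in any library were 12 for Acot1, 17 for Acot2, 44 for Ppara and 46 for Ehhadh. The order at the top differed by strain. In CAST/EiJ, Crat reached 240 ± 14 CPM per kb and Fabp3 only 49.4 ± 3.2, while in NZO/HlLtJ Fabp3 led with 243 ± 35 and Crat followed with 123 ± 5.4. The share of Acsl1 plus Crat in the 37 genes' summed level per kb was 33.5% ± 0.477 for C57BL/6J, 46.3% ± 0.943 for CAST/EiJ and 23.3% ± 1.87 for NZO/HlLtJ. Fabp3 is part of that sum, so its strain differences move these shares too. The exon length is the union of all annotated transcripts, so a gene with long or rare annotated exons reads low on this scale.

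**Figure D1:**
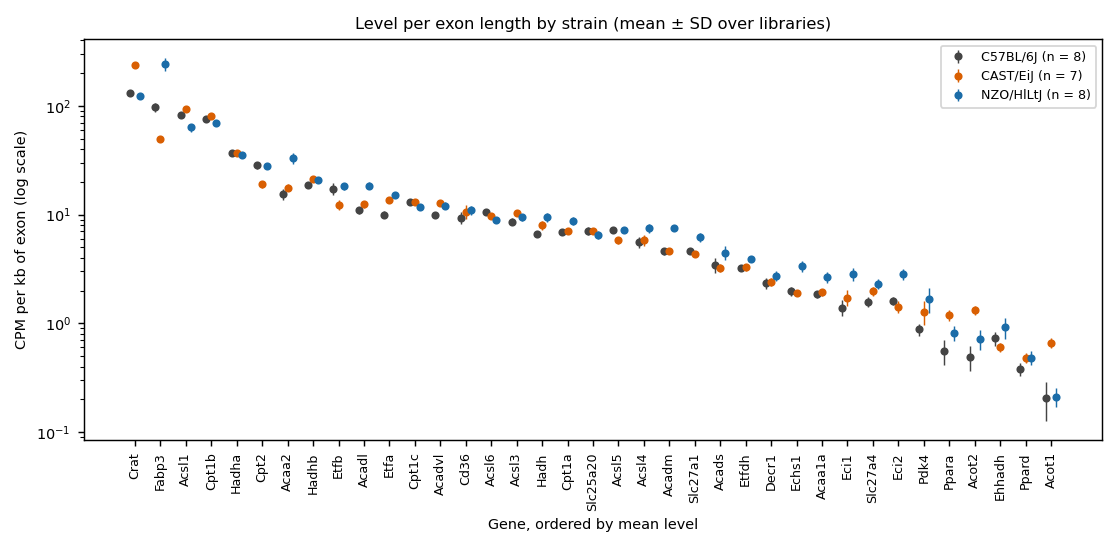
Level of each of the 37 genes in CPM per kb of exon (log scale) in C57BL/6J (grey), CAST/EiJ (orange) and NZO/HlLtJ (blue); points are means and bars SDs over libraries of both diets. Crat, Fabp3, Acsl1 and Cpt1b lie at the top in all 3 strains, Fabp3 is highest in NZO/HlLtJ and lowest in CAST/EiJ, and Crat, Acot1 and Acot2 are highest in CAST/EiJ.

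Against C57BL/6J, NZO/HlLtJ testes held more RNA of most genes that act inside the mitochondrial matrix and of all 4 uptake genes. They held slightly less of several genes grouped here with the carnitine shuttle. Of the 37 members, 26 were higher in NZO/HlLtJ (70.3%), 7 were lower (18.9%) and 4 were not called. Among all genes tested 59.1% were called in this comparison, 30.4% higher and 28.7% lower. The members with the most RNA did not share the shift. Of the 10 with the highest level per kb, 4 were higher and 4 lower, with a median log2 difference of 0.024. Of the other 27, 22 were higher and 3 lower, with a median of 0.38. The median log2 difference was 0.35 over the 37 and 0.0069 over all genes tested. That over the 37 was 0.17 with limma on the authors' log2 values, and with the 10% fat groups alone 3 members were lower in place of 7. At a fold of at least 1.5, 9 members were higher and 0 lower, where 21% of all genes tested were called, 11.5% higher and 9.48% lower. In bulk RNA, fewer cells of a type and less RNA per cell cannot be told apart. Without the 2 NZO/HlLtJ libraries that stood apart, 24 members were higher and 5 lower with a median of 0.26, and without all 5 such libraries 22 were higher and 6 lower with a median of 0.27.

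Of the 37 genes, Fabp3 had the largest difference between NZO/HlLtJ and C57BL/6J. It encodes the heart-type fatty acid binding protein and lies on chromosome 4 (GRCm38, 130308595 to 130315463, plus strand). In C57BL/6J it measured 89.7, 81.4, 75.9 and 65.3 CPM on 10% fat and 81.2, 84.5, 78.9 and 81.7 on 44% fat. In NZO/HlLtJ it measured 179.8, 168, 204.6 and 251.3 CPM on 10% fat and 189.6, 234.2, 192 and 180.2 on 44% fat. In CAST/EiJ the values were 40.8, 41.6 and 40.5 CPM on 10% fat and 43, 36.3, 43.9 and 38.4 on 44% fat. No strain's range touched another's: every NZO/HlLtJ library lay above every C57BL/6J library, and every CAST/EiJ library lay below. The log2 differences were 1.32 ± 0.069 (SE) for NZO/HlLtJ minus C57BL/6J (adjusted p = 9.47e-16), -0.97 ± 0.074 for CAST/EiJ minus C57BL/6J (adjusted p = 2.15e-12) and 2.3 ± 0.076 for NZO/HlLtJ minus CAST/EiJ (adjusted p = 7.95e-21). The 2 transporter genes were also higher in NZO/HlLtJ than in C57BL/6J, Slc27a4 by 0.56 ± 0.075 and Slc27a1 by 0.41 ± 0.054 on the log2 scale. Cd36, which encodes the scavenger receptor that takes up long-chain fatty acids, was at 33.7 ± 4.19 CPM in C57BL/6J and 39.4 ± 4.14 in NZO/HlLtJ. Its log2 difference of 0.22 ± 0.081 (adjusted p = 0.0200) was no longer called without NZO/HlLtJ 10% fat replicate 4, without C57BL/6J 44% fat replicate 3 or without all 5 libraries that stood apart.

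Most genes of the mitochondrial spiral were higher in NZO/HlLtJ. All 4 acyl-CoA dehydrogenase genes were higher than in C57BL/6J: Acadl (long-chain) by 0.75 ± 0.052, Acadm (medium-chain) by 0.71 ± 0.045, Acads (short-chain) by 0.38 ± 0.094 and Acadvl (very long-chain) by 0.29 ± 0.044 on the log2 scale. Echs1, the short-chain enoyl-CoA hydratase, rose from 16.3 ± 1.62 to 28.0 ± 3.35 CPM, a log2 difference of 0.78 ± 0.065. Hadh, the short-chain hydroxyacyl-CoA dehydrogenase, was higher by 0.53 ± 0.058. Acadvl shares 42.9% of its exon bases with Dvl2 on the opposite strand, and whether counting used strand is not stated. Dvl2 itself measured 29.8 ± 2.06 CPM in C57BL/6J and 29.1 ± 1.17 in NZO/HlLtJ.

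Acaa2 encodes the mitochondrial 3-ketoacyl-CoA thiolase, the enzyme that releases acetyl-CoA (chromosome 18, 74779197 to 74806208). It measured 26.3, 24.4, 25.3 and 23.2 CPM in C57BL/6J on 10% fat and 23.6, 20.2, 18.9 and 25.3 on 44% fat. In NZO/HlLtJ the values were 44.9, 45.2, 51.9 and 62.1 CPM on 10% fat and 51.5, 46, 50.9 and 46.7 on 44% fat. The ranges did not meet, with a log2 difference of 1.09 ± 0.063 (adjusted p = 1.13e-14). CAST/EiJ lay close to C57BL/6J with a lowest value of 23.2, a median of 27.2 and a highest of 29.5 CPM, and its log2 difference from C57BL/6J was 0.20 ± 0.067 (adjusted p = 0.00904).

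Eci1, the isomerase that repositions double bonds in unsaturated fatty acids, measured 3.27, 4.04, 2.81 and 2.66 CPM in C57BL/6J on 10% fat and 2.69, 2.69, 2.54 and 2.96 on 44% fat. In NZO/HlLtJ it measured 5.36, 5.33, 5.37 and 7.49 CPM on 10% fat and 6.73, 6.49, 6.25 and 5.40 on 44% fat. All 8 NZO/HlLtJ values exceeded all 8 C57BL/6J values, and the log2 difference was 1.03 ± 0.10 (adjusted p = 1.56e-09). Its peroxisomal and mitochondrial relative Eci2 stood at 8.95, 9.64, 9.51, 9.10, 8.25, 9.44, 7.34 and 8.94 CPM in the C57BL/6J libraries, 10% fat first. The NZO/HlLtJ libraries gave 13.2, 14.2, 15.4, 19.3, 16.5, 15.5, 16.5 and 15 CPM in the same order of diets, and those of CAST/EiJ 6.41, 7.21, 9.51, 8.6, 7.94, 8.25 and 7.20. NZO/HlLtJ was thus above both others without overlap, by 0.82 ± 0.077 against C57BL/6J and by 0.995 ± 0.081 against CAST/EiJ on the log2 scale. Summed with its near copy Eci3, the gene gave 9.06 ± 0.80 CPM for C57BL/6J, 8.42 ± 0.993 for CAST/EiJ and 16 ± 1.77 for NZO/HlLtJ. The third gene of this role, Decr1 (2,4-dienoyl-CoA reductase), was higher in NZO/HlLtJ by 0.23 ± 0.075, a call lost without the 2 NZO/HlLtJ libraries that stood apart.

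Hadha and Hadhb, which encode the alpha and beta subunits of the trifunctional protein, are head-to-head neighbours on chromosome 5 with 86 bases between their annotated starts. Hadha measured 322.7 ± 15.3 CPM in C57BL/6J against 306.6 ± 9.91 in NZO/HlLtJ, a log2 difference of -0.07 ± 0.029 (adjusted p = 0.0292). That call was lost in 9 of the settings tried, among them without NZO/HlLtJ 10% fat replicate 2, NZO/HlLtJ 44% fat replicate 3, C57BL/6J 44% fat replicate 2 or C57BL/6J 10% fat replicate 4. Hadhb measured 122.4 ± 4.37 and 137.0 ± 3.94 CPM and was called higher by 0.16 ± 0.032.

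**Figure D2:**
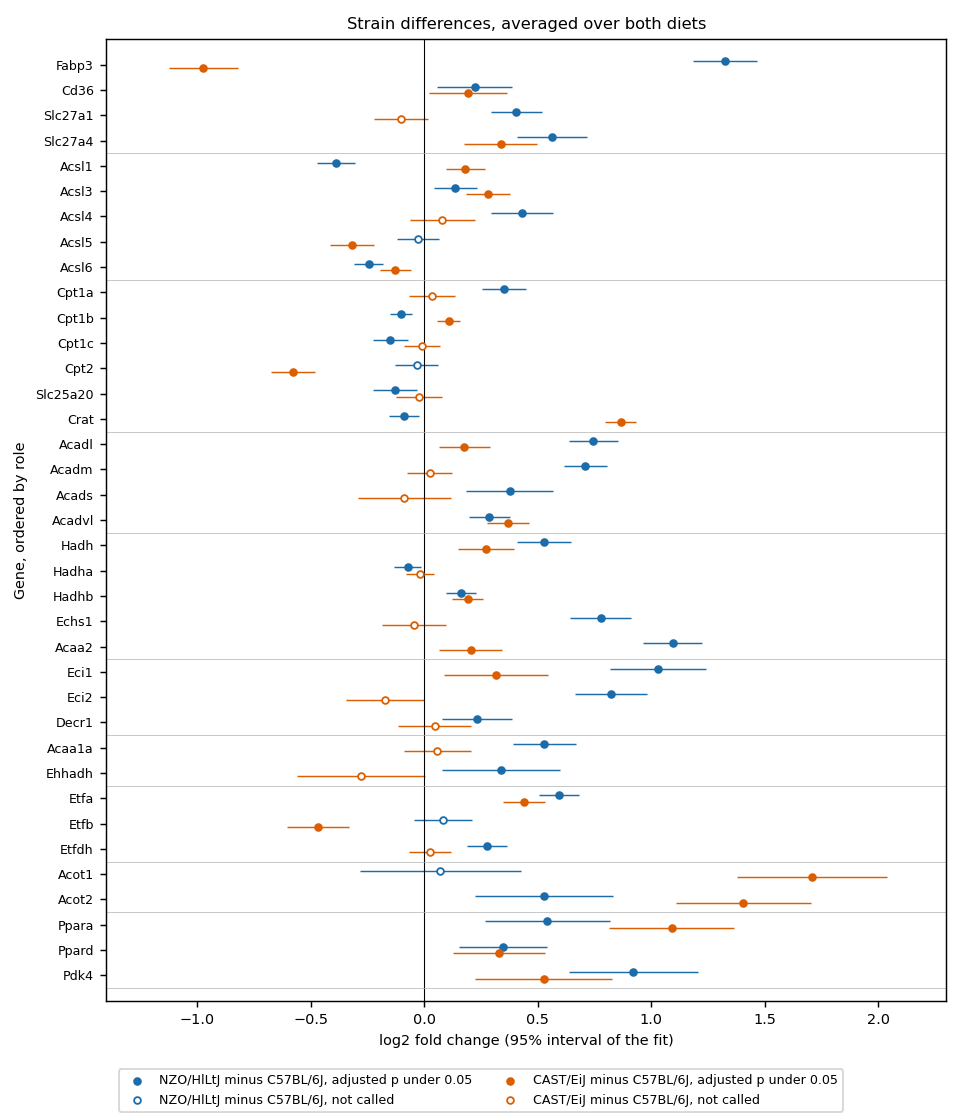
Log2 fold change of each of the 37 genes against C57BL/6J, averaged over both diets, in NZO/HlLtJ (blue) and CAST/EiJ (orange); bars are 95% intervals of the fit, filled points have an adjusted p under 0.05, and thin lines part the roles. NZO/HlLtJ points lie to the right for uptake, dehydrogenase and double bond genes and to the left for most of the carnitine shuttle, while the largest CAST/EiJ differences are Acot1, Acot2, Ppara and Crat to the right and Fabp3 and Cpt2 to the left.

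Activation and the carnitine shuttle ran the other way in part. Acsl1, the long-chain acyl-CoA synthetase with the most RNA in these testes, ranged from 833 to 921 CPM with a median of 865 in C57BL/6J and from 569 to 716 with a median of 689 in NZO/HlLtJ. The groups did not overlap, and the log2 difference was -0.39 ± 0.041 (adjusted p = 3.87e-09). Acsl6 was lower by 0.25 ± 0.032 as well (log2 difference -0.25), whereas Acsl4, which prefers arachidonic acid, was higher by 0.43 ± 0.0665 and Acsl3 by 0.14 ± 0.046. Acsl5 was not called, at 35.4 ± 2.03 CPM in C57BL/6J and 34.8 ± 1.5 in NZO/HlLtJ. Of the 6 genes grouped here with the shuttle, Crat among them, 1 was higher and 4 lower in NZO/HlLtJ. Cpt1a, the liver form of the outer membrane transferase, was the higher one, at a log2 difference of 0.35 ± 0.047. The lower ones moved little: Cpt1c by -0.15 ± 0.037, Slc25a20, the carnitine-acylcarnitine carrier, by -0.13 ± 0.048, Cpt1b by -0.10 ± 0.024 and Crat by -0.09 ± 0.033. The Slc25a20 call was lost without NZO/HlLtJ 10% fat replicate 2 or C57BL/6J 10% fat replicate 1, and without replicate 3 of C57BL/6J on 44% fat, and that of Crat without the 2 NZO/HlLtJ libraries that stood apart. With the 10% fat groups alone, the calls of Cpt1c, Slc25a20 and Crat were all lost. Cpt1b shares 81.4% of its exon bases with the read-through locus Gm44502 on the same strand, which is not among the rows used here.

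The summed level of all 37 was 639 ± 13.1 CPM per kb in C57BL/6J and 804 ± 43.2 in NZO/HlLtJ, and Fabp3 was the largest single contributor in NZO/HlLtJ. Fabp3 alone was at 97.0 ± 8.65 CPM per kb in C57BL/6J and 243 ± 35.0 in NZO/HlLtJ. Most of the difference between the sums thus lay in this gene.

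Peroxisomal and electron transfer genes were higher in NZO/HlLtJ, with 1 not called. Acaa1a, the peroxisomal thiolase, was higher by 0.53 ± 0.068, and its sum with the near copy Acaa1b was 8.70 ± 0.547 CPM in C57BL/6J against 12.5 ± 1.32 in NZO/HlLtJ. Ehhadh, the peroxisomal bifunctional enzyme, was higher by 0.34 ± 0.13 (adjusted p = 0.0238). Its call was lost in 8 settings, among them without NZO/HlLtJ 10% fat replicate 4, NZO/HlLtJ 44% fat replicate 3, C57BL/6J 10% fat replicate 2 or C57BL/6J 44% fat replicate 3. Etfa, the alpha subunit of the electron transfer flavoprotein, was higher by 0.59 ± 0.0435 and its dehydrogenase Etfdh by 0.28 ± 0.043. The beta subunit gene Etfb was not called, at 20.1 ± 2.49 CPM in C57BL/6J and 21.2 ± 1.64 in NZO/HlLtJ. It shares 53.0% of its exon bases with Gm45233 on the same strand, which measured 0.598 ± 0.221 CPM in C57BL/6J.

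Of the regulators, Pdk4, which encodes a kinase that inhibits the pyruvate dehydrogenase complex, was higher in NZO/HlLtJ by 0.92 ± 0.14 (adjusted p = 1.89e-06 in edgeR). Ppara and Ppard encode nuclear receptors that bind fatty acids and drive genes of their oxidation. Ppara was higher by 0.54 ± 0.13 and Ppard by 0.35 ± 0.095 on the log2 scale. The Ppard call was lost without the 5 libraries that stood apart (0.23, adjusted p = 0.0790 in edgeR) and with the 44% fat groups alone, and that of Ppara with the 44% fat groups alone.

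Several lists of cell type markers also differed between NZO/HlLtJ and C57BL/6J, where 30.4% of all genes tested were called higher and 28.7% lower. Leydig cell markers were called higher for 5 of 8 and lower for 2, and their summed level ran from 1077 to 1571 CPM in NZO/HlLtJ against 612 to 891 in C57BL/6J. These markers did not move together. Hsd3b1 had 9912 to 14700 estimated counts in the NZO/HlLtJ libraries against 1518 to 2298 in those of C57BL/6J. Hsd3b6 had 126 to 301 against 1275 to 3829. All but 1 of the 9 Sertoli cell markers were higher and 0 lower, with sums of 851 to 1174 CPM against 742 to 808. Spermatogonial markers were higher for 5 of 6 (sums 158 to 207 against 101 to 113 CPM), and macrophage markers for 3 of 6 (sums 93.3 to 123 against 75.5 to 92.2 CPM). Elongating spermatid markers were lower for 6 of 6, with sums of 8189 to 10645 CPM against 9899 to 11812, and round spermatid markers for 5 of 6, with sums of 692 to 763 against 777 to 894 CPM. Peritubular myoid sums were alike in these strains, at 377 to 402 CPM in NZO/HlLtJ against 370 to 403 in C57BL/6J. Spermatocyte sums were 3589.6 to 4196.5 against 4031.2 to 4471.1 CPM, and endothelial sums 29.1 to 39.3 against 24.6 to 31.4 CPM. No marker of these lists was at 0 in all libraries of a group. NZO/HlLtJ 10% fat replicate 4 had the highest summed Leydig markers of all libraries, the lowest summed elongating spermatid markers, and values above its group's mean for 31 of the 37 members. The part of cell composition in the strain differences was not tested.

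Between CAST/EiJ and C57BL/6J the largest differences were those of the thioesterases, Ppara and, in the other direction, Fabp3. Of the 37, 18 were higher in CAST/EiJ (48.6%), 5 lower (13.5%) and 14 not called, where 66.8% of all genes tested were called, 32.7% higher and 34.1% lower. At a fold of at least 1.5 there were 4 higher and 1 lower, where 33.7% of all genes tested were called, 14.1% higher and 19.6% lower. The median log2 difference was 0.08 over the 37 and -0.0012 over all genes tested. The CAST/EiJ and NZO/HlLtJ comparisons share the C57BL/6J libraries.

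Both thioesterase genes stood out. The thioesterases cleave acyl-CoA back to free fatty acid and CoA, Acot1 in the cytosol and Acot2 in mitochondria, and the genes are neighbours on chromosome 12 with 15617 bases between them. Acot1 measured 1.18, 1.07, 1.10 and 0.689 CPM in C57BL/6J on 10% fat and 0.329, 0.614, 0.501 and 0.958 on 44% fat. In CAST/EiJ it measured 2.40, 2.85 and 2.29 CPM on 10% fat and 2.31, 2.77, 2.69 and 2.84 on 44% fat, and in NZO/HlLtJ 0.678, 1.16, 0.716 and 0.891 on 10% fat and 0.865, 0.654, 0.770 and 0.892 on 44% fat. Every CAST/EiJ value lay above every value of the other strains, by 1.71 ± 0.16 on the log2 scale against C57BL/6J (adjusted p = 2.03e-10), and NZO/HlLtJ was 1.64 ± 0.16 below CAST/EiJ (log2 difference -1.64, adjusted p = 2.58e-10).

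Acot2 gave 0.942, 1.34, 0.764 and 0.781 CPM in C57BL/6J on 10% fat and 1.59, 1.17, 1.09 and 1.02 on 44% fat. CAST/EiJ gave 2.88, 3.29 and 2.78 CPM on 10% fat and 2.87, 3.03, 2.37 and 2.96 on 44% fat, without overlap and higher by 1.41 ± 0.15 on the log2 scale (adjusted p = 1.34e-09). The aligned parts of the genes' annotated transcripts are identical at 1254 of 1337 aligned bases (93.8%), with an identical run of 273 bases, so reads can be split between them. Their sum was 1.89 ± 0.295 CPM for C57BL/6J, 5.47 ± 0.433 for CAST/EiJ and 2.41 ± 0.414 for NZO/HlLtJ, and on the sum CAST/EiJ again lay above every library of the others, from 5.06 to 6.14 CPM.

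Ppara lies on chromosome 15 (85734983 to 85802819, plus strand) and measured 1.15, 2.09, 3.06 and 2.11 CPM in C57BL/6J on 10% fat and 2.60, 2.28, 2.04 and 1.89 on 44% fat. CAST/EiJ gave 4.83, 4.39 and 4.31 CPM on 10% fat and 5.04, 4.32, 3.81 and 5.25 on 44% fat, while NZO/HlLtJ lay between, at 2.94, 3.09, 3.42 and 3.90 on 10% fat and 2.27, 3.41, 2.99 and 2.98 on 44% fat. CAST/EiJ and C57BL/6J did not overlap, and the lowest CAST/EiJ value was just under the highest of NZO/HlLtJ. The log2 differences were 1.09 ± 0.14 for CAST/EiJ minus C57BL/6J (adjusted p = 4.32e-08) and -0.55 ± 0.13 for NZO/HlLtJ minus CAST/EiJ (adjusted p = 0.000445).

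On the CPM scale the largest CAST/EiJ difference was that of Crat, at 1292 ± 73.2 CPM against 706.6 ± 29.1 in C57BL/6J and 663.8 ± 29.3 in NZO/HlLtJ. Its lowest CAST/EiJ library, at 1217 CPM, lay far above the highest of C57BL/6J at 756.4, and the log2 difference was 0.86 ± 0.034 (adjusted p = 3.90e-19). Acsl1 was also highest in CAST/EiJ, at 983.5 ± 30.9 CPM, by 0.18 ± 0.042 on the log2 scale over C57BL/6J. Etfa was higher by 0.44 ± 0.045, Acadvl by 0.37 ± 0.045, Pdk4 by 0.53 ± 0.15, Slc27a4 by 0.34 ± 0.079, Acsl3 by 0.28 ± 0.048 and Hadh by 0.27 ± 0.060.

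Besides Fabp3, 4 members were lower in CAST/EiJ than in C57BL/6J. Cpt2, the inner membrane carnitine palmitoyltransferase, ranged from 42.5 to 51.2 CPM with a median of 43.9 in CAST/EiJ and from 60.6 to 76.6 with a median of 66.5 in C57BL/6J, apart and with a log2 difference of -0.58 ± 0.048 (adjusted p = 1.55e-11). Etfb was at -0.47 ± 0.066, Acsl5 at -0.32 ± 0.047 and Acsl6 at -0.13 ± 0.033. Etfa and Etfb, whose products pair in 1 flavoprotein, were thus called in opposite directions in CAST/EiJ. Cd36, at 38.3 ± 5.66 CPM in CAST/EiJ, was called higher by 0.19 ± 0.084 (adjusted p = 0.0449), a call lost in 15 settings. These included leaving out any of C57BL/6J 10% fat replicates 1, 2 and 4, C57BL/6J 44% fat replicates 2 and 3, CAST/EiJ 10% fat replicate 3 and CAST/EiJ 44% fat replicates 1, 2 and 3. With only the libraries of the 2 strains in the fit, 8 members were lower in place of 5: Slc27a1, Eci2 and Ehhadh were added.

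Beside the CAST/EiJ differences, peritubular myoid markers were lower for 6 of 6, with sums of 210 to 243 CPM against 370 to 403 in C57BL/6J. Of all genes tested, 32.7% were called higher and 34.1% lower in this comparison. Spermatogonial sums lay higher without overlap, as in NZO/HlLtJ, at 131 to 146 CPM against 101 to 113 in C57BL/6J. Sums of the Sertoli, macrophage, endothelial, spermatocyte and spermatid lists overlapped between these strains. Leydig cell markers were higher for 3 of 8 and lower for 3, with sums of 509 to 704 against 612 to 891 CPM. Of 7 adipocyte markers 3 were higher and 0 lower, and without Lipe, which germ cells also express, their sums were 10.6 to 22.4 CPM in CAST/EiJ and 6.94 to 13.2 in C57BL/6J. Epididymal markers summed to 99.3 CPM in CAST/EiJ 44% fat replicate 2. The part of these cell types in the CAST/EiJ values was not tested.

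**Figure D3:**
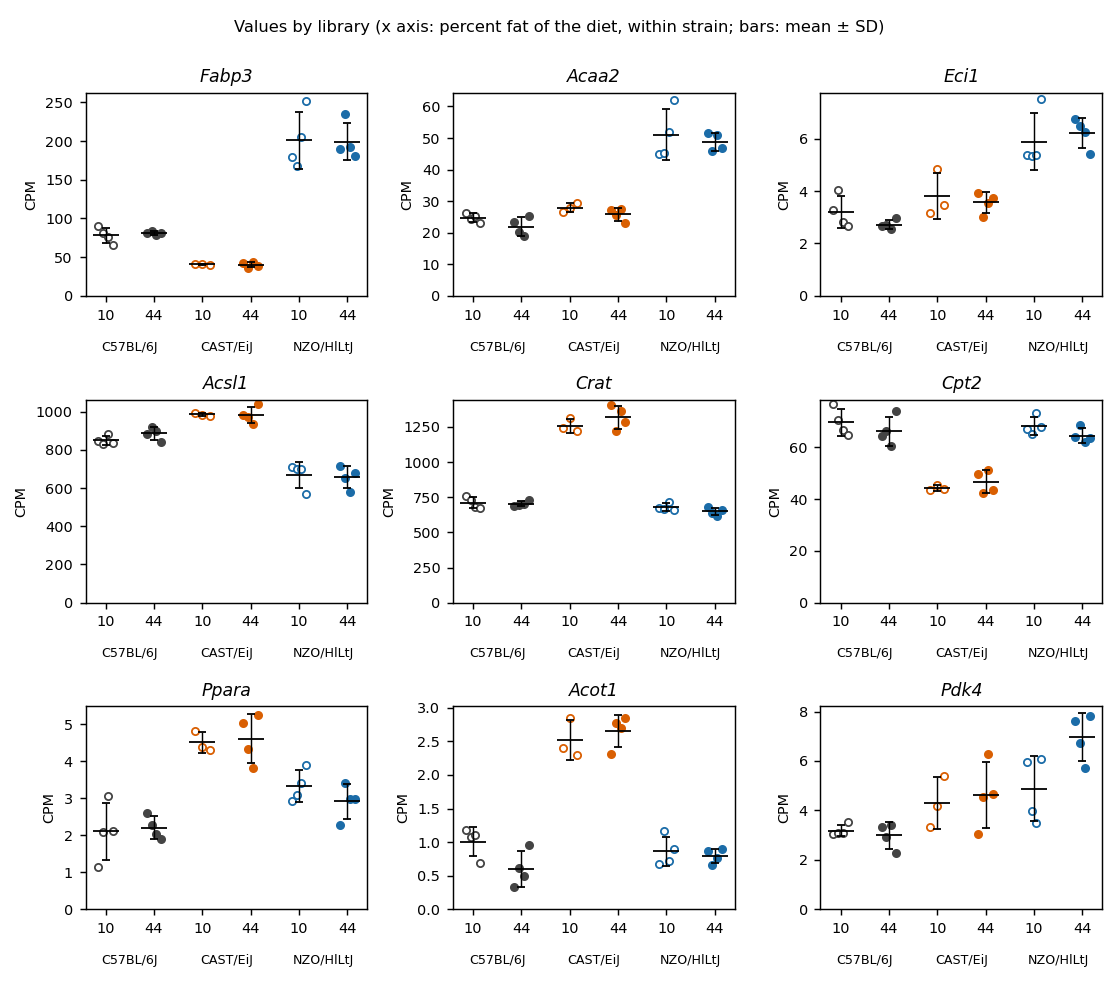
CPM of 9 genes in each library by strain and diet (open points 10% fat, filled points 44% fat; bars are mean ± SD of each group; all axes start at 0). Fabp3, Acaa2 and Eci1 are highest in NZO/HlLtJ, Acsl1 is lowest there, Crat, Ppara and Acot1 are highest and Cpt2 lowest in CAST/EiJ, and Pdk4 in NZO/HlLtJ spans 3.51 to 6.07 on 10% fat and 5.71 to 7.80 on 44% fat.

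Between NZO/HlLtJ and CAST/EiJ, 22 of the 37 were higher in NZO/HlLtJ (59.5%), 9 lower (24.3%) and 6 not called, where 72.1% of all genes tested were called, 39.6% higher and 32.5% lower. The median log2 difference was 0.25 over the 37 and 0.061 over all genes tested. That over the 37 was 0.16 with limma, and with the 10% fat groups alone 5 members were lower in place of 9. At a fold of at least 1.5, 7 were higher and 3 lower, where 36.4% of all genes tested were called, 21.5% higher and 14.9% lower. The 3 lower ones were Acot1, Acot2 and Crat. Calls for several members varied with the setting. Those of Slc27a4 and Acsl3 were lost without the 5 libraries that stood apart, and that of Pdk4 without CAST/EiJ 10% fat replicate 1. With the 10% fat groups alone, the calls of Slc27a4, Acsl3, Acsl6, Cpt1c, Etfa, Ppara and Pdk4 were lost. Decr1 (0.18 ± 0.077) was not called with DESeq2, edgeR's RLE factors or limma, with the 10% fat groups alone, without the libraries that stood apart, or without any one of CAST/EiJ 10% fat replicate 1, CAST/EiJ 44% fat replicates 3 and 4, NZO/HlLtJ 10% fat replicates 3 and 4 and NZO/HlLtJ 44% fat replicates 2 and 3. Slc25a20 (-0.10 ± 0.050), Acadvl (-0.08 ± 0.045) and Hadha (-0.05 ± 0.030) were not called, but were called lower with DESeq2, RLE factors and limma. With TMM scaling, Slc25a20 was also called lower without any one of 6 libraries and in subsets of the groups, Acadvl without NZO/HlLtJ 10% fat replicate 4 and without the libraries that stood apart, and Hadha with the 2 strains alone in the fit.

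Over the 3 comparisons, 19 members were called higher in NZO/HlLtJ than in both other strains and 5 (Acsl1, Acsl6, Cpt1b, Cpt1c and Crat) lower than in both. CAST/EiJ was above both others for 7 (Acsl1, Acsl3, Cpt1b, Crat, Acot1, Acot2 and Ppara) and below both for 4 (Fabp3, Acsl5, Cpt2 and Etfb). Acsl1, Cpt1b and Crat therefore had the same order in each pair of strains, CAST/EiJ above C57BL/6J above NZO/HlLtJ. The call of Crat as lower in NZO/HlLtJ than in C57BL/6J was lost without the 2 NZO/HlLtJ libraries that stood apart. Without all 5 such libraries, a call behind these patterns was lost for Decr1, Ehhadh, Slc27a4 and Acsl3. Each of the 37 was called in at least 1 pair of strains: 15 in all 3 pairs, 20 in 2 and 2 in 1. The 3 comparisons share their libraries, so these counts are not independent of each other. Of all genes tested, 59.1% were called for NZO/HlLtJ minus C57BL/6J, 66.8% for CAST/EiJ minus C57BL/6J and 72.1% for NZO/HlLtJ minus CAST/EiJ. The shares of all genes with these joint patterns were not computed, so the joint counts are not set apart from the rest of the genes.

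**Figure D4:**
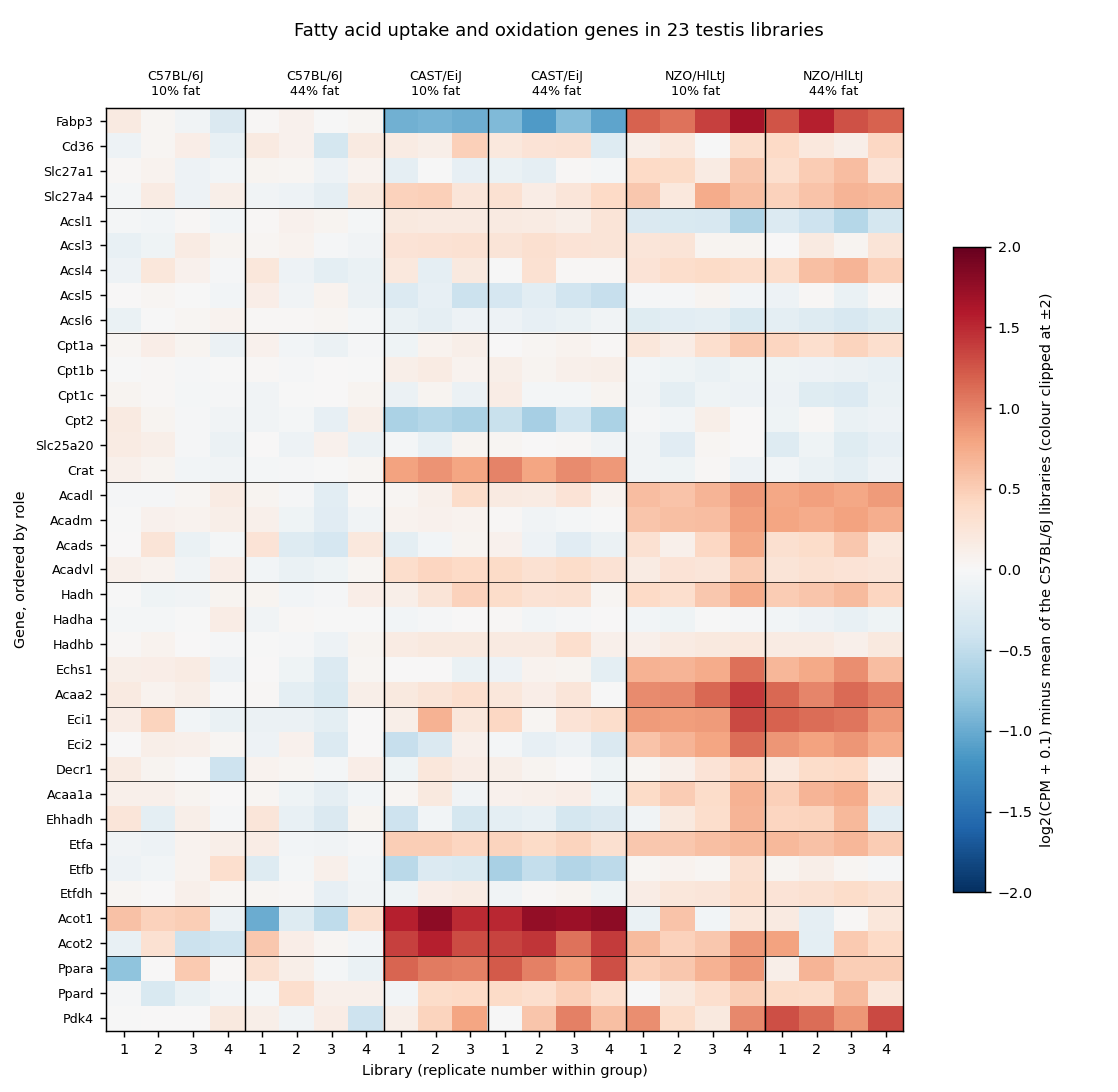
Log2(CPM + 0.1) of the 37 genes (rows, by role) in the 23 libraries (columns, by strain and diet), minus the mean of the 8 C57BL/6J libraries; red is higher, blue lower, and colour is clipped at 2 in either direction. Strain blocks are visible for Fabp3, Crat, Cpt2, Acaa2, Eci1, Acot1, Acot2 and Ppara, no block follows diet, and NZO/HlLtJ 10% fat replicate 4 is darker than the rest of its group in many rows.

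Promoter sequence was available in RefSeq (GRCm38.p6; 250 bases before to 50 after the transcription start) for 33 of the 37 genes. The genes shown are the one with the largest strain difference in NZO/HlLtJ, a dehydrogenase raised in that strain, and the 3 with the largest differences in CAST/EiJ. Capitals mark every match, on either strand, to the searched letters AGGTCANAGGTCA (the element bound by PPAR and RXR), AGGTCA (a nuclear receptor core, contained in the former), TGACG (a cyclic AMP response core), TATAAA and CCAAT.

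Fabp3, chr4:130308488-130308787, plus strand: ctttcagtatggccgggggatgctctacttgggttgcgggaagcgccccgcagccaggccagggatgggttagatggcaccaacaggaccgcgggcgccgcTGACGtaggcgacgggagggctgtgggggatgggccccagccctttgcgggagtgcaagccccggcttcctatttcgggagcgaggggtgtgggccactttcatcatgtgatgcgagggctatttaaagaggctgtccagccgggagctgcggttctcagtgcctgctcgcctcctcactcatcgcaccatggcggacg
Acadm, chr3:153944594-153944893, minus strand: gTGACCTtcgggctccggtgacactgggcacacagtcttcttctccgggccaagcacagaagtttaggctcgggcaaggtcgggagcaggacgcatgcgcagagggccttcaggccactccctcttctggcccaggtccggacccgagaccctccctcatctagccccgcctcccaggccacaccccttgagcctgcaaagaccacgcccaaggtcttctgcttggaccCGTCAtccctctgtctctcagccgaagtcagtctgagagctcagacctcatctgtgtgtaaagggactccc
Ppara, chr15:85735526-85735825, plus strand: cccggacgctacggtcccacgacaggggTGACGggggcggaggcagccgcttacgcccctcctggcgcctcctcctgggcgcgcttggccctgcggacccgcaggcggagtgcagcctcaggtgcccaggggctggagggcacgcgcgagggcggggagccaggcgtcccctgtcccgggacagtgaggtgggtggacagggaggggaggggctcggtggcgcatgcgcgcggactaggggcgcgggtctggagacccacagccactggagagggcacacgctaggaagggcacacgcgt
Acot1, chr12:84009252-84009551, plus strand: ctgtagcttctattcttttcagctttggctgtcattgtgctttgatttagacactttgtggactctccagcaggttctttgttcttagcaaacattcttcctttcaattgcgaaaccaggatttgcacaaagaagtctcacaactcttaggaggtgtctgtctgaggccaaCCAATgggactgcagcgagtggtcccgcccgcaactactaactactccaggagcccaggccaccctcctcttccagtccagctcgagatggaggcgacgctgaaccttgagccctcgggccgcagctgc
Acot2, chr12:83987611-83987910, plus strand: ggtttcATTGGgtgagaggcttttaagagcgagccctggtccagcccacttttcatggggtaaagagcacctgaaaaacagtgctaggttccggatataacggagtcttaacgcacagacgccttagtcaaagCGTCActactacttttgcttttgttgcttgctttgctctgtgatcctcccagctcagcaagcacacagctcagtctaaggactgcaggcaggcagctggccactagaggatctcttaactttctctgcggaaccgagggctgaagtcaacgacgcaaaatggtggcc

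The Fabp3 window holds TGACG, and that of Acadm holds AGGTCA and TGACG, each read on the minus strand of the printed letters. Ppara holds TGACG, first base at -222 from its RefSeq start site. The RefSeq start sites of Ppara and Fabp3 lie downstream of the gene starts given above, and the Ppara window lies wholly inside the gene span given. Acot1 and Acot2 hold CCAAT at different places, -79 and -244. Over all 33 members, AGGTCANAGGTCA was found in 0, against 0.0481% of 27025 genes with a promoter in the table, and AGGTCA in 7 (21.2%, against 18.1%). TGACG was found in 9 (27.3%, against 23%). TATAAA was found in 0, against 15.7%, and CCAAT in 19 (57.6%, against 41.1%). These are letters in short windows of the reference strain and describe no binding.

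Diet changed none of the 37 genes past the threshold in any strain. Called members of 44% minus 10% fat were 0 of 37 in C57BL/6J, where 0.00874% of all genes tested were called, 0 in CAST/EiJ (0% of all genes), 0 in NZO/HlLtJ (0.00437%) and 0 averaged over strains (0%). With DESeq2 and with limma on the authors' log2 values the count was also 0 in each of these. At an unadjusted p under 0.05 in the edgeR fit, 1 member passed in C57BL/6J, 0 in CAST/EiJ, 2 in NZO/HlLtJ and 3 in the average, against 2.93%, 4.11%, 6.8% and 3.92% of all genes tested. The intervals were narrow for most genes: the 95% interval of the diet difference lay within a fold of 1.5 in either direction of 35 of the 37 for C57BL/6J, all 37 for CAST/EiJ and 34 for NZO/HlLtJ. The log2 differences ran from -0.78 (Acot1) to 0.32 (Acot2) for C57BL/6J, from -0.19 (Etfb) to 0.14 (Ppard) for CAST/EiJ and from -0.24 (Acot2) to 0.52 (Pdk4) for NZO/HlLtJ.

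Fabp3, the member with the largest difference between NZO/HlLtJ and C57BL/6J, differed between diets by 0.06 in C57BL/6J (95% interval -0.14 to 0.26), -0.02 in CAST/EiJ (-0.24 to 0.21) and -0.01 in NZO/HlLtJ (-0.21 to 0.18) on the log2 scale. Cpt1a, whose product is the controlled entry step for long-chain fatty acids, differed by -0.06 (-0.20 to 0.08), 0.0013 (-0.15 to 0.15) and 0.07 (-0.06 to 0.20). For Acaa2 the 3 values were -0.18, -0.11 and -0.07, and their average of -0.12 had an unadjusted p of 0.0340 and an adjusted p of 1.00 in edgeR. Etfb (-0.13) and Ppard (0.18) were the other members under 0.05 unadjusted in the average.

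Pdk4 in NZO/HlLtJ had the highest diet difference above 0 of any member in any strain, and the lowest adjusted p. It measured 5.96, 4.0, 3.51 and 6.07 CPM on 10% fat and 7.62, 6.73, 5.71 and 7.80 on 44% fat. A pair of the 10% fat libraries lay within the range of the 44% fat group and the other pair below it. The log2 difference of 0.52 ± 0.18 had a 95% interval of 0.14 to 0.89, an unadjusted p of 0.00952 and an adjusted p of 0.720 in edgeR, so it was not called. In C57BL/6J the difference was -0.08 (-0.51 to 0.34), and the diet effect in NZO/HlLtJ exceeded that in C57BL/6J by 0.60 (0.03 to 1.17; adjusted p = 1.00). Acsl4 in NZO/HlLtJ was at 36.1, 38.0, 38.9 and 38.0 CPM on 10% fat and 38.2, 45, 47.7 and 41.6 on 44% fat, a log2 difference of 0.19 with an unadjusted p of 0.0469 and an adjusted p of 0.735 in edgeR.

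Acot1 in C57BL/6J had the largest diet difference of any member, and it is also the gene with the fewest counts. It was lower on 44% fat by 0.78 on the log2 scale (log2 difference -0.78 ± 0.25), with an unadjusted p of 0.00424 and an adjusted p of 1.00 in edgeR. The ranges overlapped, 0.689 to 1.18 CPM on 10% fat and 0.329 to 0.958 on 44% fat. Acot2 lay the other way, by 0.32, and the sum of the near copies was 1.97 ± 0.399 CPM on 10% fat and 1.82 ± 0.169 on 44% fat, within the spread of the libraries.

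Whether diet acted differently by strain was tested directly. None of the 37 members was called for any pair of strains or over all 3 at once, and 0% of all genes tested were called in each. At an unadjusted p under 0.05 in edgeR, 3 members passed for NZO/HlLtJ against C57BL/6J (Acsl4, Acadm and Pdk4; 4.05% of all genes), 1 for CAST/EiJ against C57BL/6J (Acot1; 4.02%) and 2 for NZO/HlLtJ against CAST/EiJ (Cpt1c and Acadm; 7.45%). Of Acadm, the diet difference was -0.13 (-0.27 to 0.003) for C57BL/6J, -0.10 (-0.24 to 0.05) for CAST/EiJ and 0.11 (-0.02 to 0.24) for NZO/HlLtJ.

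**Figure D5:**
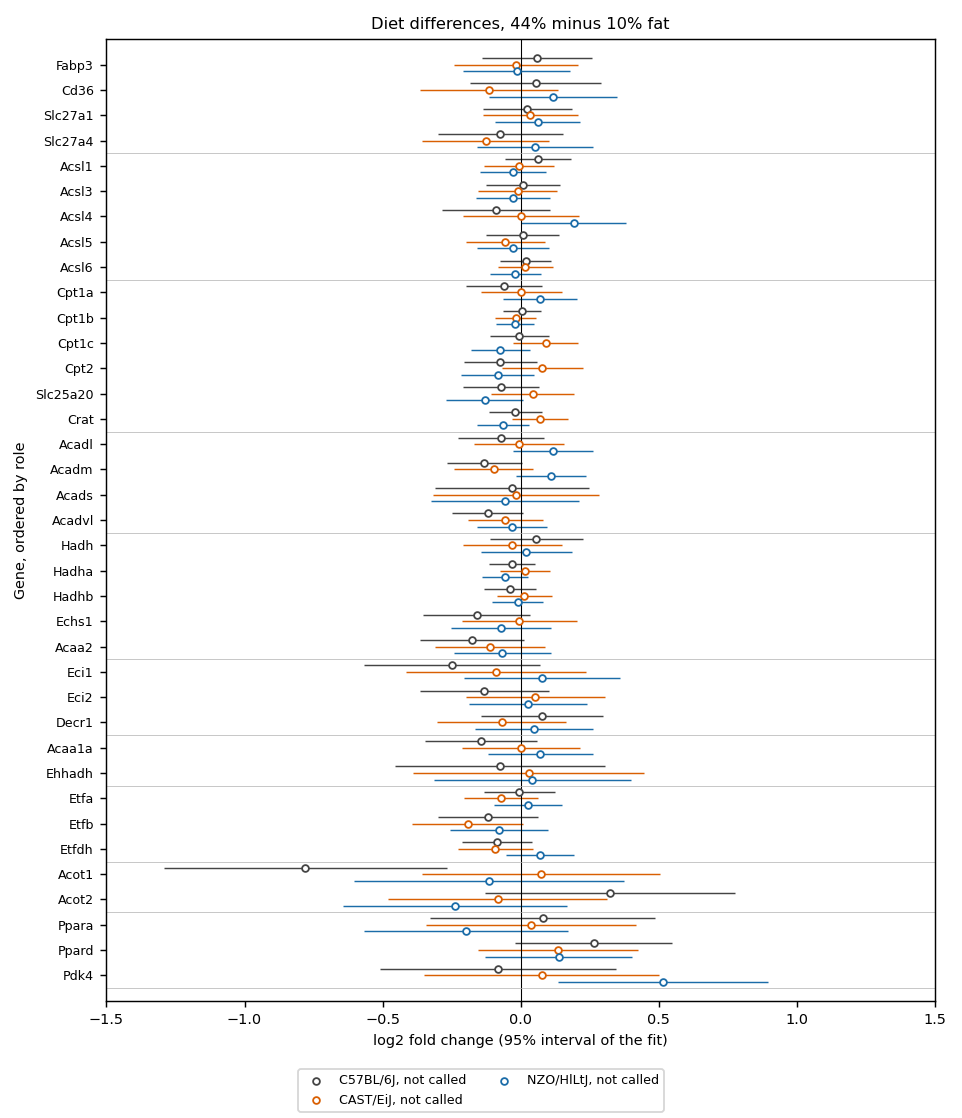
Log2 fold change of each of the 37 genes between the 44% and the 10% fat diet in C57BL/6J (grey), CAST/EiJ (orange) and NZO/HlLtJ (blue); bars are 95% intervals of the fit and all points are open because none was called. Most points lie near 0, Acot1 in C57BL/6J is the farthest to the left at -0.78 and Pdk4 in NZO/HlLtJ the farthest to the right at 0.52.

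Genes around the pathway were read from 7 lists, beside which the shares over all genes tested are 30.4% higher and 28.7% lower for NZO/HlLtJ minus C57BL/6J and 32.7% and 34.1% for CAST/EiJ minus C57BL/6J. In NZO/HlLtJ against C57BL/6J, further mitochondrial oxidation genes were higher for 12 (54.5%) and lower for 5 (22.7%) of 22 tested, and peroxisomal genes were higher for 10 (47.6%) and lower for 2 (9.52%) of 21. Acsm3, a medium-chain acyl-CoA synthetase, measured 9.41 ± 0.817 CPM in NZO/HlLtJ against 1.93 ± 0.243 in C57BL/6J, a log2 difference of 2.29 ± 0.092. Acss3 was higher by 1.73 ± 0.14 and the thioesterase Acot13 by 1.11 ± 0.12. Phyh, which begins the oxidation of phytanic acid in peroxisomes, rose from 8.54 ± 0.546 to 16.6 ± 1.88 CPM, by 0.96 ± 0.067 on the log2 scale.

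Ketone body genes were higher for 5 (62.5%) and lower for 2 (25.0%) of 8 in NZO/HlLtJ, where 59.1% of all genes were called. In CAST/EiJ, where 66.8% of all genes were called, 3 of these 8 were higher (37.5%) and 2 lower (25.0%): Bdh1, the mitochondrial hydroxybutyrate dehydrogenase, was higher by 1.56 ± 0.064 and Bdh2 by 1.81 ± 0.17, while Oxct1, which lets cells burn ketone bodies, was at -0.87 ± 0.041.

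Other regulators and known PPARA targets were higher for 8 (28.6%) and lower for 7 (25.0%) of 28 in NZO/HlLtJ, near the 30.4% and 28.7% of all genes, and higher for 13 (46.4%) and lower for 9 (32.1%) of 28 in CAST/EiJ, against 32.7% and 34.1%. Vnn1, a pantetheinase gene driven by PPARA in liver, measured 1.2 ± 0.30 CPM for C57BL/6J, 11.4 ± 1.02 for CAST/EiJ and 3.13 ± 0.245 for NZO/HlLtJ, with log2 differences of 3.19 ± 0.11 and 1.34 ± 0.11 from C57BL/6J. Rxra, the partner receptor of PPARA, was lower in CAST/EiJ, at 14.9 ± 0.832 against 37.6 ± 2.53 CPM (log2 difference -1.33 ± 0.048). Angptl4 was higher in NZO/HlLtJ by 0.96 ± 0.12.

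Of the genes of uptake and binding outside the 37, 7 were higher (36.8%) and 5 lower (26.3%) of 19 tested in NZO/HlLtJ, with the same counts in CAST/EiJ, where the shares of all genes were 30.4% and 28.7% in the first and 32.7% and 34.1% in the second. Dbi, which binds acyl-CoA, was higher in NZO/HlLtJ by 0.87 ± 0.061. Acsf3 was at -0.96 ± 0.054 in CAST/EiJ. Carnitine supply genes were higher for 4 (57.1%) and lower for 3 (42.9%) of 7 in NZO/HlLtJ and higher for 2 (28.6%) and lower for 3 (42.9%) of 7 in CAST/EiJ, where the carnitine transporter Slc22a21 fell from 114.0 ± 3.88 to 59.6 ± 1.23 CPM (log2 difference -0.93 ± 0.033). Lipid storage genes were higher for 5 (21.7%) and lower for 9 (39.1%) of 23 in NZO/HlLtJ and higher for 7 (30.4%) and lower for 9 (39.1%) in CAST/EiJ. Plin5, the lipid droplet protein that faces mitochondria, was higher in both, by 1.06 ± 0.15 and 1.01 ± 0.16, whereas Fitm1 measured 0.333 ± 0.117 CPM in CAST/EiJ against 3.87 ± 0.342 in C57BL/6J (log2 difference -3.53 ± 0.15). In peroxisomes, Hacl1 was at -1.56 ± 0.063 and Hsd17b4 at -0.76 ± 0.040 in CAST/EiJ, whose peroxisomal list gave 6 higher (28.6%) and 8 lower (38.1%) of 21. No gene of the 7 lists was called in any diet comparison.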

How the data were processed

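PolyA RNA went into KAPA mRNA HyperPrep libraries that were sequenced as 100 bp pairs, per the labels' protocols. The authors deposited estimated counts per gene, and a second table of log2 values after a variance-stabilising transformation. The submitters' processing notes name GRCm38 and DESeq2. For the aligner, counter, annotation, strand setting and treatment of strain variants: not given in the sources used here. The deposited gene table gives positions in megabases, and 30 of 37 starts equalled those of GENCODE M21, from which exon lengths and overlaps were taken.

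Estimated counts were rounded, and filterByExpr on the 6 groups removed genes of low count. Differences were tested in edgeR 4.0.16 (R 4.3.3) by its quasi-likelihood F test, with TMM scaling (factors 0.956 to 1.06) and a mean for each group over all 23 libraries. Strain contrasts averaged both diets, and interactions were differences of diet effects. Adjustment was by Benjamini-Hochberg over 22873 genes, with a threshold of 0.05. DESeq2 1.42.0, limma 3.58.1 on the deposited log2 values, other scalings and filters, subsets of libraries and the runs of ID numbers in the titles were tried as alternatives. In NZO/HlLtJ the 10% fat libraries were in runs 1 and 3 and the 44% fat libraries in runs 1 and 2. Diet and run thus partly coincide there, and whether the runs are batches is not stated. The procedure was tested on simulated data for NZO/HlLtJ minus C57BL/6J only, with changes set in genes of at least 1 CPM. Diet and interaction comparisons were not simulated. The 37 genes, the pathway lists and the markers were chosen with earlier results of these data known. Every library is given for members past the threshold with at least a 2-fold strain difference, or else for the 3 largest differences. Other pathway genes were named from the 3 largest calls per list and comparison with a mean of at least 1 CPM. Some genes that this rule names are not reported here. Depth limits precision most for Acot1, Acot2, Ehhadh and Ppara.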

Additional observations from a re-analysis of the deposited data

Results flagged for a closer look

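In groups of 4 libraries, 185 sets of values (37 genes in 5 groups) were checked for 1 library far from the other 3, and 9 stood out, 4.86%. Chance flags about 1 in 20 groups. All values are in CPM. In NZO/HlLtJ 10% fat replicate 4, which also has the highest Leydig and lowest elongating spermatid marker sums, Acsl1 was 569 where the other 3 libraries lay between 698 and 713, Echs1 was 34.9 (others 26 to 27.1), Eci1 was 7.49 (5.33 to 5.37) and Etfb was 25.0 (20.4 to 21). In C57BL/6J 10% fat replicate 4, Hadha was 357 (313 to 320), Echs1 was 15.2 (17.7 to 18.1) and Pdk4 was 3.54 (3.03 to 3.09). Cd36 was 28.0 in CAST/EiJ 44% fat replicate 4 (38.9 to 40.7), and Acsl4 was 36.8 in CAST/EiJ 44% fat replicate 2 (29.6 to 30.3).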

How the results depend on the processing

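Each of 126 results for single genes was recomputed under 31 to 34 alternatives, and 95 kept their side of the threshold in all of those. Of the results, 10 changed sign in at least 1 alternative, and none of these 10 was called. No paired analysis was possible because the titles give no replicate numbers. The median member difference (log2) for NZO/HlLtJ minus C57BL/6J was 0.17 with limma on the authors' log2 values, 0.27 without the 5 libraries that stood apart and 0.26 without the 2 of NZO/HlLtJ. For NZO/HlLtJ minus CAST/EiJ it was 0.16 with limma and 0.17 with the 10% fat groups alone. With the 10% fat groups alone, fewer samples enter: 3 members were lower in NZO/HlLtJ than in C57BL/6J and 5 lower than in CAST/EiJ. With the 2 strains alone in the fit, 8 were lower in CAST/EiJ than in C57BL/6J. Members called for diet or its interaction with strain stayed at 0 in all settings. Counts over all genes for diet were small and moved: in C57BL/6J 0 with 1 strain in the fit and 0 without the 5 libraries; in CAST/EiJ 3 with DESeq2 and 1 with limma; in NZO/HlLtJ 7 with DESeq2, 2 without a filter, 0 with the run of ID numbers as a covariate, 0 with 1 strain in the fit, 5 without the 5 libraries and 3 without the 2. DESeq2 called 6 for the average, 3 for the diet effect in NZO/HlLtJ minus C57BL/6J, 7 for NZO/HlLtJ minus CAST/EiJ and 8 for any strains. Without the 5 libraries these last were 3 (median member difference 0.085) and 1, and without the 2 libraries 1 and 1. The cause of these shifts was not tested. Leaving out 1 library at a time gave 24 to 26 members higher and 5 to 7 lower for NZO/HlLtJ minus C57BL/6J (median 0.30 to 0.39), 17 to 18 and 5 to 7 for CAST/EiJ minus C57BL/6J (0.051 to 0.11), and 20 to 22 and 9 to 11 for NZO/HlLtJ minus CAST/EiJ (0.21 to 0.27). Genes called for diet then ran from 0 to 2 in C57BL/6J, 0 to 3 in CAST/EiJ, 0 to 5 in NZO/HlLtJ and 0 to 2 in the average, and for interactions from 0 to 2. The median member diet difference ran from -0.022 to 0.048 in NZO/HlLtJ, and its excess over that in C57BL/6J from -0.00065 to 0.099 and over that in CAST/EiJ from -0.015 to 0.096.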
